A study of Mus musculus with 8 samples.

Results

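The genes described here encode interleukin-15 and interleukin-6, the regulatory cytokine interleukin-10, subunits of the interleukin-12 cytokine family, and the receptor subunits that bind some of them. The 10 genes are the ligand genes Il15, Il6, Il10, Il23a and Ebi3 and the receptor genes Il15ra, Il6ra, Il6st, Il10ra and Il10rb. Every probe that the platform annotation assigns to one of them was taken, which gave 16 of 25697 probes and 10 of 16593 named genes. Probes were matched by gene symbol alone. A probe was tested where its detection p-value was under 0.05 on at least 4 of the 8 arrays, which held for 11 of the 16 probes and for 9 of the 10 genes. Il10 was not tested.

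RNA came from bone marrow-derived macrophages of C57BL/6 mice, grown for 7 days with 15% medium conditioned by L929 fibroblasts, in DMEM with 10% serum. In 24-well plates, after 12 hours without the conditioned medium, 4 wells received rat islet amyloid polypeptide (IAPP, the beta cell hormone amylin) and 4 wells received human IAPP, for 12 hours. Titles and design text put the dose at 15 µM, whereas the treatment protocol writes 15 with millimolar as its unit. The human peptide forms amyloid and the rat peptide does so poorly, and since untreated wells are not analysed here, every difference below is human minus rat IAPP and peptide sequence and aggregation cannot be told apart.

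Each replicate was a separate well, and the labels do not say whether wells shared animals, so a p-value here weighs a difference only against well-to-well spread, possibly a technical one. Mean raw signal per array was 1180 to 1967 intensity units with rat IAPP and 1144 to 1368 with human IAPP, and 42.1% to 47.6% of probes were detected per array. The number of arrays limits the precision. Rat array 4 had the lowest mean signal of the rat arrays, and its mean correlation with the other rat arrays was 0.987, against 0.992 to 0.993 for the others. All 6 macrophage markers on the array were detected, and the summed linear level of that list was 129578 to 136207 with rat IAPP and 143568 to 146339 with human IAPP. The Lyz2 probe of that list lay near the scanner ceiling. Without it the sum was 63555 to 71308 with rat IAPP and 76817 to 79041 with human IAPP, and without Lyz2 and Cd14 it was 27258 to 32129 and 19447 to 21761. Within the list Cd14 was higher by 0.63 on the log2 scale, and Fcgr1, Mertk and Adgre1 fell by 1.62, 1.19 and 0.48. Of the markers of T cells, B cells, dendritic cells, fibroblasts and mast cells, 0 passed the detection filter. Prf1 of the 6 natural killer markers passed it and was not called. Of 5 neutrophil markers, S100a8 passed the filter and was not called, and Elane was higher by 0.43 (adjusted p = 0.046), a call lost in 11 of 15 alternatives. The neutrophil list summed to 2151 to 2495 with rat IAPP and 1897 to 2808 with human IAPP. The part of these marker levels in the results below was not tested, and fewer cells of a type and less RNA per cell cannot be told apart.

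These cytokines signal through receptors that activate Janus kinases (JAK) and STAT transcription factors. Interleukin-15 is held by its alpha receptor on the surface of macrophages and dendritic cells and presented to T and natural killer cells, some of which need it to survive. Interleukin-6 binds its own alpha receptor, and the complex then engages gp130, a signalling subunit shared by a whole cytokine family and encoded by Il6st. Interleukin-10 restrains macrophage activation through a ligand-binding chain (Il10ra) and a shared chain (Il10rb), and acts largely through STAT3. Il23a encodes the alpha chain of interleukin-23, and Ebi3 encodes a chain of interleukin-27.

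With human IAPP the transcripts of Il15 and of 3 receptor subunits, Il6ra, Il10ra and Il6st, fell, and that of Il23a rose by a small amount. Il15 fell 5.57-fold and Il6ra 2.63-fold. Il10ra fell 1.51-fold and Il6st 1.30-fold. The Il6, Ebi3, Il15ra and Il10rb differences did not pass the test, and Il10 was not detected on any of the 8 arrays. Of the 9 tested genes 5 were called at an adjusted p under 0.05, 1 higher and 4 lower. Among all 7809 genes tested, 56.4% were called, 23.8% higher and 32.6% lower, so a count of 5 in 9 is near the background of this experiment. The wells of both groups did not overlap for 4 of the 9 genes, against 51.3% of all genes tested. The median difference was -0.38 on the log2 scale over the 9 genes and -0.055 over all genes tested. By probe, 7 of the 11 tested were called, against 54.5% of all probes tested.

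**Figure D1:**
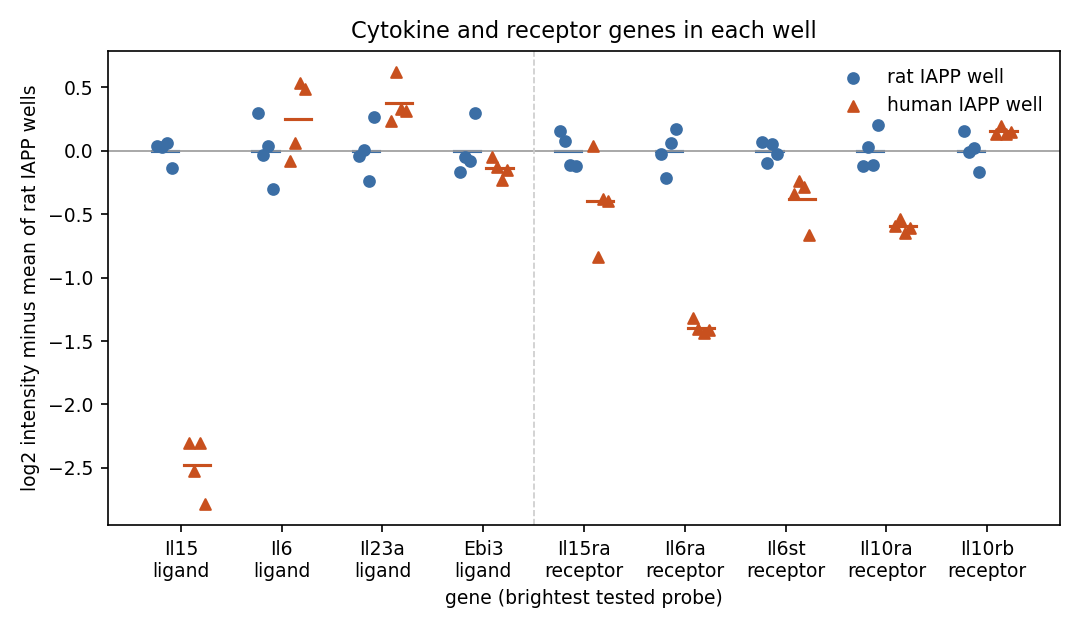
Log2 intensity of the brightest tested probe of each gene in each well, after subtracting the mean of the 4 rat IAPP wells of that gene. Circles are rat IAPP wells, triangles human IAPP wells, and horizontal bars group means; ligand genes are left of the dashed line and receptor genes right of it. Il15, Il6ra, Il6st and Il10ra show human wells below every rat well.

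Among the ligands, Il15 had the largest difference. Its brightest probe (ILMN_2610234) gave log2 intensities of 11.75, 11.74, 11.77 and 11.57 in rat wells 1 to 4 and 9.41, 9.19, 9.41 and 8.93 in human wells 1 to 4. All 4 human wells lay more than 2 log2 units below the lowest rat well. The mean went from 11.71 ± 0.091 to 9.23 ± 0.23 (SD, n = 4 wells each). Il15 thus fell by 2.48 on the log2 scale (SE 0.11, 95% interval -2.74 to -2.22, limma adjusted p = 1.9e-07). It ranked 11 among the falls of all 7809 genes, of which 24 fell at least 4-fold. Unnormalised signals told the same order, with 2724 to 6173 units on the rat arrays and 632.1 to 936.1 on the human arrays.

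The array holds 3 Il15 probes, all detected on all 8 arrays, and each was lower with human IAPP. The second (ILMN_2938704) read 10.63, 10.85, 10.82 and 10.69 in the rat wells and 8.84, 8.41, 8.44 and 8.26 in the human wells, a fall of 4.80-fold (log2 difference -2.26, adjusted p over probes 6.2e-07). The third (ILMN_1219869) read 8.73, 8.82, 8.98 and 8.99 against 7.34, 7.33, 7.29 and 7.15, a fall of 3.03-fold (log2 difference -1.60, adjusted p over probes 6.4e-07). Rat and human wells did not overlap on any of the 3 probes, while the size of the fall differed between them. Under 21 other ways of processing, the Il15 difference lay between -2.88 and -1.93 and passed the test each time.

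**Figure D2:**
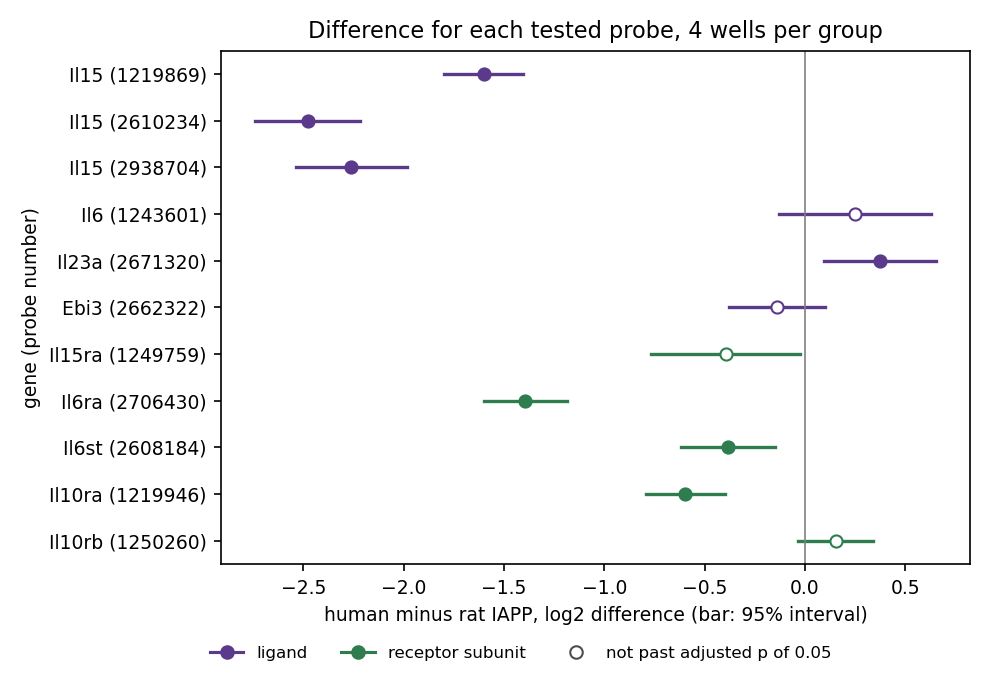
Log2 difference between human and rat IAPP for each of the 11 tested probes, with the 95% interval as a bar; the number beside each gene is that of its probe. Filled points passed the adjusted p threshold of 0.05 and open points did not. The 3 Il15 probes lie at -2.48, -2.26 and -1.60, left of every other probe.

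Il6, the gene of a pro-inflammatory cytokine that drives the acute phase response, lay near the detection limit. Its probe was detected on 3 rat and 2 human arrays. The rat wells read 6.49, 6.16, 6.23 and 5.90 and the human wells 6.12, 6.26, 6.73 and 6.68, so the groups overlapped. The difference was 0.25 (SE 0.17, 95% interval -0.12 to 0.63, adjusted p = 0.23). Raw signals were 351.8 to 429.5 with rat IAPP and 353.5 to 384.0 with human IAPP. The interval leaves room for a difference in Il6 of up to 0.63 on this scale. For Il10, the gene of the cytokine that damps macrophage activation, detection p-values ran from 0.302 to 0.955 and raw signals from 247.8 to 364.4 over all 8 arrays, so neither group has a level above background and no fold is given.

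Among subunits of the interleukin-12 family, Il23a was the only ligand gene called higher. Its tested probe read 6.02, 6.06, 5.82 and 6.33 in the rat wells and 6.29, 6.68, 6.39 and 6.37 in the human wells. Rat well 4 lay above human well 1, so the groups overlapped. The difference was 0.37 (SE 0.12, 95% interval 0.10 to 0.65, adjusted p = 0.025), or 1.30-fold. The probe lay near background, with raw signals of 355.2 to 388.7 on rat arrays and 342.1 to 374.2 on human arrays, and a second probe was detected on 0 of 8 arrays. The call was lost in 9 of 19 alternatives, among them no background correction (0.090, adjusted p = 0.16), median scaling (0.29, adjusted p = 0.23), the authors' rescaled values (0.12, adjusted p = 0.080) and leaving out rat array 1, 2 or 3 or human array 2 (adjusted p 0.051 to 0.073).

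Ebi3, in contrast, was bright in every well. It read 11.77, 11.89, 11.85 and 12.23 with rat IAPP and 11.88, 11.81, 11.70 and 11.78 with human IAPP, and the groups overlapped. The difference was -0.14 (SE 0.11, 95% interval -0.37 to 0.097, adjusted p = 0.29). Before normalisation its signals did not overlap, at 4013 to 6459 units with rat IAPP and 2981 to 3678 with human IAPP, on arrays whose mean signals also differed. With the authors' rescaled values the difference was 0.015 (adjusted p = 0.89), and with median scaling it was -0.48 (adjusted p = 0.055). Il12a, whose chain pairs with that of Ebi3 in interleukin-35, was detected on 2 rat arrays and 1 human array and was not tested. Il12b and Il2rg were not analysed here.

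Of the receptor genes, Il6ra, the ligand-binding chain of the interleukin-6 receptor, differed most. The rat wells read 10.56, 10.37, 10.64 and 10.75 and the human wells 9.27, 9.17, 9.14 and 9.16. All human wells lay more than 1 log2 unit below all rat wells, and they were close to each other (SD 0.053, against 0.16 in the rat wells). Il6ra fell by 1.39 on the log2 scale (SE 0.091, 95% interval -1.60 to -1.19, adjusted p = 1.7e-06), rank 110 among the falls. Its difference stayed between -1.83 and -1.01 under the 21 alternatives and passed the test in each.

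Il6st, the gene of gp130, read 8.59, 8.42, 8.57 and 8.50 in the rat wells and 8.18, 8.28, 8.23 and 7.85 in the human wells. The highest human well lay below the lowest rat well, by a narrow margin. Il6st fell by 0.38 (SE 0.10, 95% interval -0.61 to -0.15, adjusted p = 0.010). Median scaling gave -0.83 and the authors' rescaled values -0.18, both past the test. Set beside each other, the log2 differences were 0.25 for the ligand gene Il6, -1.39 for Il6ra and -0.38 for Il6st. The difference between these genes' changes was not tested.

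Sequences around the start sites of these 3 genes are shown because Il6 was not called while both of its receptor genes fell. Each window runs from 250 bases before to 50 bases after the RefSeq start in mouse GRCm38.p6, at chr5:30012864-30013163 (plus strand) for Il6, chr3:89913147-89913446 (minus strand) for Il6ra and chr13:112463820-112464119 (plus strand) for Il6st. Capitals mark matches on either strand to 8 motifs chosen after the sequences had been seen.
Il6: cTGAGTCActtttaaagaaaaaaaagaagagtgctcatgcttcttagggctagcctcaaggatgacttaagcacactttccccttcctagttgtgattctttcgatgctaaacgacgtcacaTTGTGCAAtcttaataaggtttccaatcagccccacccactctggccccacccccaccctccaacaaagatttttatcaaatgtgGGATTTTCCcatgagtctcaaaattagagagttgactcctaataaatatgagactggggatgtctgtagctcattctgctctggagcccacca
Il6ra: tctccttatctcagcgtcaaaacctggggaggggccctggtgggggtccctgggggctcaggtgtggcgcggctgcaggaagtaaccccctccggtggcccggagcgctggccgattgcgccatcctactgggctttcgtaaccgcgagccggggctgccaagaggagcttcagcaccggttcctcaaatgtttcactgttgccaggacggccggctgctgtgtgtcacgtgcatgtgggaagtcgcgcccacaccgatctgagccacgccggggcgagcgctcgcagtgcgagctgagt
Il6st: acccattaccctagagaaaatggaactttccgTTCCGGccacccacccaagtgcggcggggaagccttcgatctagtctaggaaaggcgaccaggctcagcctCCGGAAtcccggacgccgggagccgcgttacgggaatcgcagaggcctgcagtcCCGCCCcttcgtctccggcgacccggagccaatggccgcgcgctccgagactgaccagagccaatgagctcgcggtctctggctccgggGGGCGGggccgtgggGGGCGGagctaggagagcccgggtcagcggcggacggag
In the Il6 window, which is 44% G and C, the AP-1 motif TGANTCA begins at base 2, the C/EBP motif TTGNGCAA at base 123 and the NF-kB motif GGANTTTCC at base 208, with base 1 at the 5′ end. These motifs occur in 7.81%, 2.94% and 1.25% of the 32851 windows of the same length. The Il6st window is 68.3% G and C and holds 3 GC boxes (GGGCGG, in 35.7% of windows) and 2 ETS motifs (CCGGAA, in 14.9%). The Il6ra window, 66% G and C, holds no match to these or to the CRE (TGACGTCA, 1.79%), IRF (AAANNGAAA, 10.6%) and STAT (TTCNNNGAA, 8.30%) motifs. No motif overlapped another in these windows, and a match to letters describes the sequence only. Windows were at hand for 5 of the 10 genes.

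Il10ra, the chain that binds interleukin-10 itself, also fell. It read 11.62, 11.77, 11.63 and 11.94 in the rat wells and 11.15, 11.20, 11.09 and 11.13 in the human wells, with no overlap. The log2 difference was -0.60 (SE 0.087, 95% interval -0.79 to -0.40, adjusted p = 0.00028). Median scaling gave -0.96, and all 21 alternatives passed the test. Il10rb, the partner chain shared with other receptors of the interleukin-10 family, read 11.84, 11.67, 11.70 and 11.51 with rat IAPP and 11.81, 11.88, 11.81 and 11.83 with human IAPP. Its groups overlapped through rat well 1, and the difference was 0.15 (SE 0.082, 95% interval -0.030 to 0.34, adjusted p = 0.14). That direction turned with median scaling (-0.20, adjusted p = 0.48), while the authors' rescaled values gave 0.27 (adjusted p = 0.0017).

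Il15ra, which presents interleukin-15 to neighbouring cells, has 4 probes on the array, of which 1 was tested. That probe was detected on 4 rat arrays and 2 human arrays. It read 6.73, 6.65, 6.46 and 6.46 in the rat wells and 6.61, 5.73, 6.19 and 6.18 in the human wells. Human well 1 lay among the rat wells and the other human wells lay below them. The difference of -0.40 (SE 0.16, 95% interval -0.76 to -0.029) had an adjusted p of 0.064. It passed the test in 4 alternatives, which were median scaling (-0.58), cyclic loess (-0.39), array weights (-0.43) and leaving out human array 1 (-0.55, adjusted p = 0.0085). It shrank to -0.097 with no background correction, to -0.067 (adjusted p = 0.33) with the rescaled table, and to -0.26 without human array 2. Beside it, the log2 difference of its ligand gene Il15 was -2.48.

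By role, 1 of the 4 tested ligand genes rose (Il23a) and 1 fell (Il15), with a median difference of 0.056. Of the 5 receptor genes 0 rose and 3 fell, the differences running from -1.39 to 0.15 around a median of -0.40. Over all genes tested 23.8% rose and 32.6% fell, and counts this small are not set apart from those shares. With 4 ligand and 5 receptor genes, no test of one role against the other was made. The plot of the processing settings shows which of these calls moved.

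**Figure D3:**
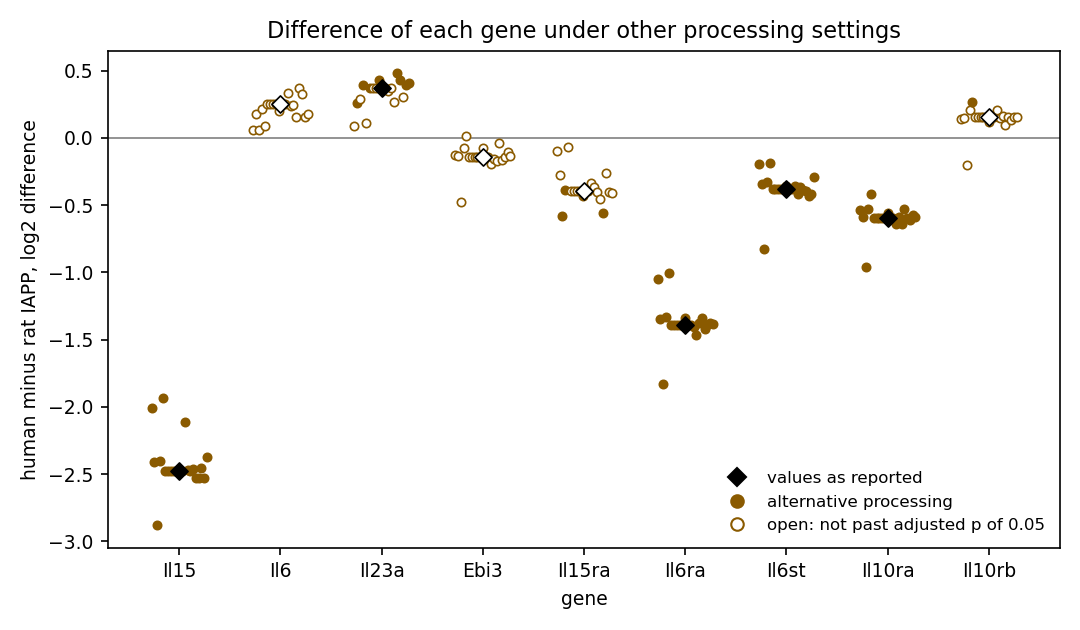
Log2 difference of each tested gene as reported (diamonds) and under each of up to 21 other ways of processing that gave a value (circles); open symbols did not pass the adjusted p threshold of 0.05. Il15, Il6ra, Il6st and Il10ra are filled under every setting, and Il23a is open in 9 of 19 alternatives. Il10rb crosses 0 with median scaling and Ebi3 with the authors' rescaled values.

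To place these genes among their partners, 7 lists of related signalling genes were read from the same fit. Of 81 listed genes on the array 54 were tested, and 18 rose and 18 fell, against 23.8% and 32.6% over all genes tested. With median scaling the number higher was 8. The counts of each list below stand beside the same shares, and the medians beside -0.055 over all genes tested. No test of a list was made. Osm, the gene of oncostatin M, another ligand that signals through gp130, rose from 10.27, 10.54, 10.57 and 10.50 in the rat wells to 13.59, 13.77, 13.67 and 13.79 in the human wells. That is 9.43-fold (log2 difference 3.24, SE 0.089, adjusted p = 9.9e-09), and a second Osm probe gave 4.31 on the log2 scale. It was the only called gene among 3 tested ligands outside the 10 genes. The gp130 ligand gene Ctf1 had a difference of 0.26 (adjusted p = 0.16).

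Among 4 other receptor subunits tested, 2 rose. Il7r, the interleukin-7 receptor chain, rose 2.69-fold (log2 difference 1.43, SE 0.13, adjusted p = 1.7e-05), from 12.19, 11.99, 12.16 and 11.56 to 13.30, 13.47, 13.38 and 13.47, with no overlap, and a second probe gave 2.36 on the log2 scale. Il20rb, a receptor chain for the interleukin-10 relatives interleukin-19, interleukin-20 and interleukin-24, rose 1.96-fold (0.97, SE 0.13, adjusted p = 0.00017). It is dim, and its difference was 0.28 with no background correction and 0.29 with the authors' rescaled values, both past the test. Il20ra had a difference of 0.23 (adjusted p = 0.21). Both called subunits thus moved in the direction opposite to that of Il6ra, Il6st and Il10ra.

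Of 7 tested JAK and STAT genes 1 rose and 4 fell (median difference -0.37). Stat3, the main transducer of interleukin-6 and interleukin-10 signals, was higher in all 4 human wells (12.24, 12.47, 12.35 and 12.28) than in any rat well (11.71, 11.95, 11.68 and 12.11). It rose 1.39-fold (0.47, SE 0.11, adjusted p = 0.0043), and its other probes gave 0.64 and 0.34, but the call was lost with median scaling (0.15, adjusted p = 0.56). Stat4, a transducer of interleukin-12 signals, fell by 0.61 (SE 0.096, adjusted p = 0.00045). The kinase genes Tyk2 and Jak2 fell by 0.42 (adjusted p = 0.0024) and 0.37 (adjusted p = 0.0033). Other Tyk2 probes, at -0.30 and -0.15, and a second Jak2 probe, at -0.44 (adjusted p over probes 0.052), were not called. Stat5a, used by interleukin-15, fell by 0.40 (adjusted p = 0.0071). Jak1 and Jak3 had differences of -0.013 (adjusted p = 0.93) and 0.050 (adjusted p = 0.75). Stat5a, Jak1 and Jak3 were named after their values were seen. No background correction gave -0.20 for Stat4 and -0.25 for Stat5a, and median scaling gave -0.80 for Tyk2 and -0.79 for Jak2, all past the test.

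Of 10 tested genes that restrain JAK-STAT signalling 2 rose and 5 fell. Pias3, an inhibitor of STAT3, fell 2.57-fold, from 9.43, 9.47, 9.48 and 9.47 to 8.16, 8.44, 8.16 and 7.65 (log2 difference -1.36, SE 0.15, adjusted p = 4.0e-05), and a second probe gave -1.14. Socs5 fell by 0.67 (adjusted p = 0.00044) and Pias1 by 0.52 (adjusted p = 0.00046). No background correction gave -0.80 for Pias3, and median scaling gave -1.10 for Socs5 and -0.87 for Pias1, all past the test. Socs3, the feedback inhibitor that binds gp130, had a difference of 0.17 (SE 0.089, adjusted p = 0.13), which turned to -0.17 with median scaling.

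Of 13 tested genes known to respond to interleukin-10 or STAT3 in macrophages, 7 rose and 3 fell (median difference 0.50). Il1rn, the interleukin-1 receptor antagonist, read 7.44, 7.58, 7.63 and 7.75 in the rat wells and 13.81, 14.09, 14.01 and 14.18 in the human wells, which is 86.0-fold (6.43, SE 0.10, adjusted p = 2.1e-10), and a second probe, undetected on all 4 rat arrays, gave at least 3.19. Zfp36, whose protein speeds the decay of cytokine mRNAs, rose 1.86-fold (0.90, SE 0.098, adjusted p = 4.5e-05), and the haem oxygenase gene Hmox1 rose 1.77-fold (0.82, SE 0.084, adjusted p = 3.2e-05). Bcl3 and Nfil3, also on this list, fell by 0.96 (adjusted p = 5.8e-05) and 0.72 (adjusted p = 0.00011), and were picked out after their values were seen. Bcl3 was at -0.59 with no background correction. These genes answer to many stimuli besides interleukin-10, and whether interleukin-10 took part in their differences was not tested. The Il10 transcript was not detected at the time sampled, and neither earlier transcript nor the protein was measured.

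Of 14 tested transcription factor genes known to act on these cytokine genes, 5 rose and 5 fell. Atf3, a repressor of Il6 in activated macrophages, rose 4.44-fold (2.15, SE 0.083, adjusted p = 5.9e-08), and Rel, an NF-kB subunit, rose 2.99-fold (1.58, SE 0.083, adjusted p = 4.2e-07), which was 0.76 on the log2 scale with no background correction. Nfkbiz, which encodes a nuclear cofactor that Il6 induction needs, fell 2.88-fold (log2 difference -1.53, SE 0.14, adjusted p = 1.7e-05). Its wells read 12.87, 12.41, 12.56 and 12.11 with rat IAPP and 10.96, 11.05, 10.98 and 10.85 with human IAPP, with no overlap. Of the other falls, named after their values were seen, Maf, an activator of Il10, was undetected on all 4 human arrays and had a bound of -1.30 on its log2 difference (adjusted p = 5.0e-05). That bound holds for the background correction used, since the difference was -0.43 with none and -0.39 with the authors' rescaled values. Irf5, Irf8 and Irf1, interferon regulatory factor genes, also fell, with log2 differences of -0.62, -0.51 and -0.37 (adjusted p 4.8e-05, 0.0012 and 0.0087), with Irf1 losing its call with the authors' rescaled values and with the mean over its probes. Median scaling gave -0.97, -0.91 and -0.66 for these 3 genes.

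Of 3 tested genes that act in the shedding of the interleukin-6 and interleukin-15 receptors, 0 rose and 1 fell. The protease gene Adam17, which releases these receptors from the cell surface, fell by 0.31 (SE 0.11, adjusted p = 0.033), a call lost in 10 of 21 alternatives. Rhbdf1, whose protein helps Adam17 mature, had a difference of -0.31 (adjusted p = 0.11). The other tested gene of the list, Rhbdf2, went the other way, at 0.39 (adjusted p = 0.14), and was not called.

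**Figure D4:**
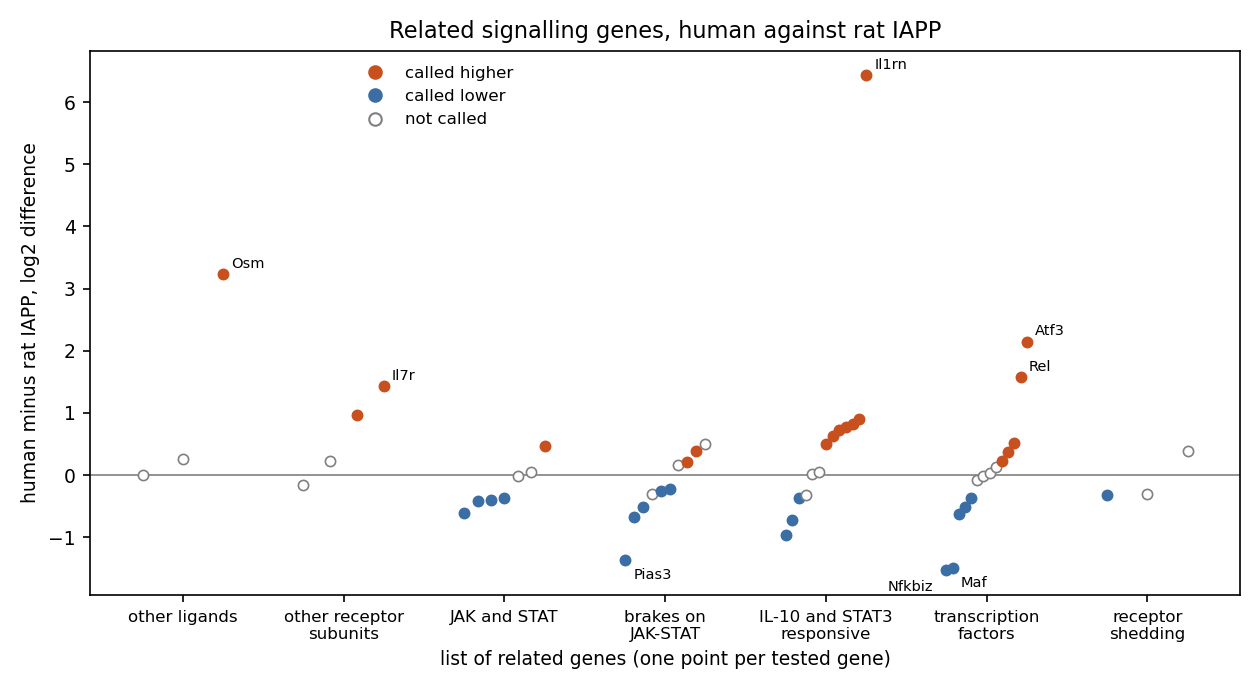
Log2 difference between human and rat IAPP for each tested gene of the 7 lists, a point per gene, sorted within a list from lowest to highest. Orange genes were called higher, blue genes lower, and open points were not called. Il1rn at 6.43 and Osm at 3.24 lie highest; Nfkbiz at -1.53 and Maf, whose plotted fitted value is -1.49, lie lowest.

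The genes nearest to each of the 9 tested genes in their pattern over the 8 arrays were found by the root mean square distance between log2 values, after subtracting each gene's rat mean. Nearest to Il15 were Tlr8, an endosomal RNA sensor, at 0.16 (difference -2.30) and Trp53inp1 at 0.18 (difference -2.42). Nearest to Il6ra were Rab11fip5 at 0.10 (difference -1.35) and Tmem218 at 0.11 (difference -1.46). For Il10ra they were Rnpep at 0.035 and Pygb at 0.038, and for Il6st Rbm43 at 0.048 and Zc3h14 at 0.061. The nearest neighbours of Il15 and Il6ra lay farther from them than those of Il10ra and Il6st did. This distance depends largely on the size of the difference, and few genes fell as far as Il15 and Il6ra (ranks 11 and 110 among the falls). The comparison therefore describes the size of the differences and not a shared regulation. For the genes near background or without a call, the nearest were Plekha3 and Ankrd17 for Il6, Myo7a and Ttll1 for Il23a, Gm5512 and Ube2e3 for Ebi3, Trub1 and Zfp24 for Il15ra, and Caprin1 and Rapgef6 for Il10rb, at 0.042 to 0.13.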

How the data were processed

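Total RNA of each well was extracted with a column kit and biotin-labelled for single-colour Illumina arrays, per the labels' protocols. The authors deposited non-normalised probe intensity (linear units), and every signal column is paired with a column of detection p-values, per the file headers. Another deposited table has the same arrays' intensity rescaled, each column being a straight line of each array's signal (Pearson r = 1 after rounding). Its scale is linear and it is not centred, its method is not given in the sources used here, and it served as an alternative. Its column medians were 352.6, 356.6, 353.8 and 361.1 for rat arrays 1 to 4 and 361.8, 362.9, 359.2 and 367.7 for human arrays 1 to 4. Groups came from the sample labels.

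With limma 3.58.1 in R 4.3.3, normexp background correction took its negative controls from the detection p-values, with 16 as its offset, which pulls the differences of dim probes towards 0, and arrays were quantile normalised on the log2 scale. Probes detected at p under 0.05 on at least 4 arrays were tested, 11451 in all. Platform annotation gave 1 symbol to 23978 probes, several to 0 and left 1719 unlisted, and 23962 were matched by gene number to RefSeq (GRCm38.p6). The brightest tested probe stood for its gene. The difference human minus rat IAPP came from lmFit and eBayes with no covariate, and p-values were adjusted by Benjamini-Hochberg over all 7809 genes, or over all probes where stated. A probe undetected on all arrays of a group has a bound as its fold. Promoter sequences are RefSeq's.

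The 10 genes and the related lists were chosen with earlier results of these data known. From each list up to 3 called genes with the smallest p were named, with up to 1 more where fewer were called. Socs3, Stat3 and Il12a were always named, and some further list genes were named after their values were seen. For each of the 10 genes that was tested, the 2 other genes nearest to it over the 8 arrays were named. Quantile normalisation and the group fit were tested on simulated arrays with differences set in a small part of the probes. Those arrays were built from normalised values, so background correction, the detection filter and the choice of probe were not covered. Alternatives covered background correction, normalisation, filters, variance models, a replicate block, the mean over probes and each array left out. Treating rat array 4 as the only rat array was added after seeing the data. No pair of arrays was alike: log2 values of any pair differed with an SD of at least 0.211.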

Additional observations from a re-analysis of the deposited data

Results flagged for a closer look

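In 126 groups of 4 wells, 10 had a well far from the other 3 relative to the whole range of the group. Chance gives about 1 in 20. The groups covered the genes of the report that were tested and given with a value, apart from Jak3 and Rhbdf2. In Il15, rat well 4 read 11.57 against 11.74 for the next well, a gap that is 0.854 of the range of the rat wells, and all 4 human wells lay below it. Rat well 4 was also the far well in Tyk2 (11.30 against 11.52, 0.856 of the range), in Fcgr1 (9.49 against 9.75, 0.911 of the range) and, as the highest, in Stat5a (9.39 against 9.02, 0.933 of the range). Rat well 1 was far in Rhbdf1 (6.74 against 7.09, 0.838 of the range) and, as the highest, in Trub1 (8.43 against 8.31, 0.924 of the range). Among human wells, well 3 was lowest in Il20rb (6.99 against 7.37, 0.830 of the range), well 4 in Rbm43 (10.55 against 10.87, 0.864 of the range) and well 2 in Stat5a (8.60 against 8.73, 0.841 of the range). Human well 1 was highest in Irf1 (12.44 against 12.19, 0.843 of the range).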

How the results depend on the processing

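The number of the 9 tested genes called higher, 1 as reported (Il23a), was 0 with no background correction, median scaling, detection on all 8 arrays, no filter on dim probes, a detection p under 0.01, and a variance trend with a robust prior, and it ranged from 0 to 1 when each array was left out in turn. Il23a itself was not tested when detection on all 8 arrays or a detection p under 0.01 was asked for. With the authors' rescaled values the 1 gene called higher was Il10rb (limma adjusted p = 0.0017), and Il23a was not called (adjusted p = 0.080). Over the related lists, 18 genes were higher as reported and 8 with median scaling, and 18 were lower as reported and 11 with rat array 4 as the only rat array, a setting chosen after seeing the data, whose p-values assume that the lone array varies like the human ones and so settle no call. Median scaling moved the median of all genes from -0.055 to -0.40 and the share of higher among all calls from 42.2% to 14.1%, while the authors' rescaled values gave 53.5%. Relative to that median, Il10rb (-0.20), Socs3 (-0.17), Plekha3 (-0.17), Ankrd17 (-0.24), Myo7a (-0.056), Caprin1 (-0.16) and Rapgef6 (-0.32), all positive as reported, lay above it. Ebi3 turned to 0.015 with the authors' rescaled values, and Ctf1 to -0.026 and Zfp24 to 0.018 with rat array 4 as the only rat array. The cause of these changes was not tested. With no filter, 24.9% of 16593 genes were called, against 56.4% of 7809.

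Il15, Il6ra and Il10ra kept their direction and call under 21 alternatives (all but rat array 4 alone), as did Il6st. Same-numbered rat and human wells did not deviate together (correlations -0.13, -0.019, 0.16 and -0.0024), so the numbers were not taken as pairs. With the replicate number as a block, 1777 genes were called higher and 2389 lower, the counts over the 9 genes remained 1 higher and 4 lower, and the related lists gave 17 higher and 17 lower. A block on the slide was not run because the sources used here give no slide. Signals of Il6, Il10, Il23a and Il15ra close to background limit what can be said of them.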
